A study of Mus musculus with 17 samples.

Results

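The earliest response of mouse neural retinal progenitor cells (mNRPCs) to basic fibroblast growth factor (bFGF) was read from the 4 RNA-seq libraries of day 1, out of 17 libraries in the series. They were chosen by their labelled treatment and day, with no measured value used. mNRPCs are a line grown from the neural retina of adult C57BL/6 mice on Matrigel. BM is a serum-free basic medium (DMEM/F12 with N2, B27 and beta-mercaptoethanol), and all 4 libraries came from cells in it: BM alone, B with bFGF, C with CHIR99021, an inhibitor of the kinase GSK-3, and BC with both. B and BC, the 2 libraries with bFGF, were compared with BM and C, the 2 without, so that CHIR99021 was present in 1 library of each arm. A further library, labelled day 0 and without treatment, is given beside them.

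Each treatment had 1 library on day 1, so B and BC stood in for replicates, as did BM and C. The p-values therefore measure only the spread between these libraries, which includes any effect of CHIR99021 and need not equal the spread between cultures. For a single gene, an exact two-sided permutation test of 2 against 2 libraries cannot give a p below 0.333, and the tests rest on edgeR's fit across all genes. The medium in which the line was propagated also held bFGF and CHIR99021. The study's text describes day 0 in one place as control cells in BM and in another as the state before any treatment. These statements do not settle whether bFGF was kept or newly added in B and BC, so gain there cannot be told apart from loss in BM and C.

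bFGF (FGF2) binds FGF receptors, which are receptor tyrosine kinases, and the adaptor FRS2 then couples them to the RAS, RAF, MEK and ERK cascade and to PI3K and AKT. ERK activity induces immediate early transcription factors and also a set of genes whose products dampen the same pathway, such as Sprouty and SPRED proteins and the dual-specificity phosphatases that remove phosphate from ERK. AKT keeps FOXO transcription factors out of the nucleus. In the retina, FGF signalling is known for its part in the formation and growth of the neural retina.

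The 4 libraries were of nearly equal depth, from 18796690 expected counts in C to 18980140 in BM, and 15347 to 15542 genes were listed in each. The Pax6, Six3 and Sox2 genes of retinal progenitors were expressed, with Sox2 at 30.32 to 62.75 FPKM (fragments scaled by transcript length and by library total) over the 4 libraries. The progenitor genes Rax and Six6 were at or near 0 (no more than 0.03 FPKM), and Lhx2 stayed below 1 FPKM. None of the 13 photoreceptor, 9 retinal pigment epithelium and 6 endothelial markers in the files reached a mean of 1 FPKM on day 1. Vim, an intermediate filament gene of glia and progenitors, was at 1639.74 to 1814.67 FPKM. Of 16 Mueller glia and astrocyte markers in the files, Vim among them, 6 reached a mean of 1 FPKM. The glial genes Gfap, Slc1a3 and Rlbp1, from the same list, were at no more than 0.06 FPKM.

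bFGF was accompanied on day 1 by a change in 1079 of 10939 genes tested, of which 524 were higher with bFGF (4.79% of genes tested) and 555 were lower (5.07%). A gene was called when the adjusted p of edgeR's quasi-likelihood test was under 0.05 and the difference in log2(FPKM + 1) had the same sign in B against BM and in BC against C. Most changes were small. The median log2 fold change was 0.52 among the genes called higher and -0.64 among those called lower, and 87.4% and 76.2% of them, respectively, changed by less than 2-fold. A difference of at least 2-fold in both pairs was found in 99 genes, 27 higher (0.247%) and 72 lower (0.658%), and 95 of them were among the called genes.

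Over all genes tested, 79.7% moved in the same direction in both pairs (34.5% higher with bFGF and 45.2% lower), and the differences of the pairs had a Pearson correlation of 0.791 across genes. The pairs share no library, but genes are not independent replicates and the value is a description. With CHIR99021 as the only difference, fewer genes moved: 155 genes differed at least 2-fold between B and BM and 147 between BC and C, against 34 between C and BM and 16 between BC and B.

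**Figure D1:**
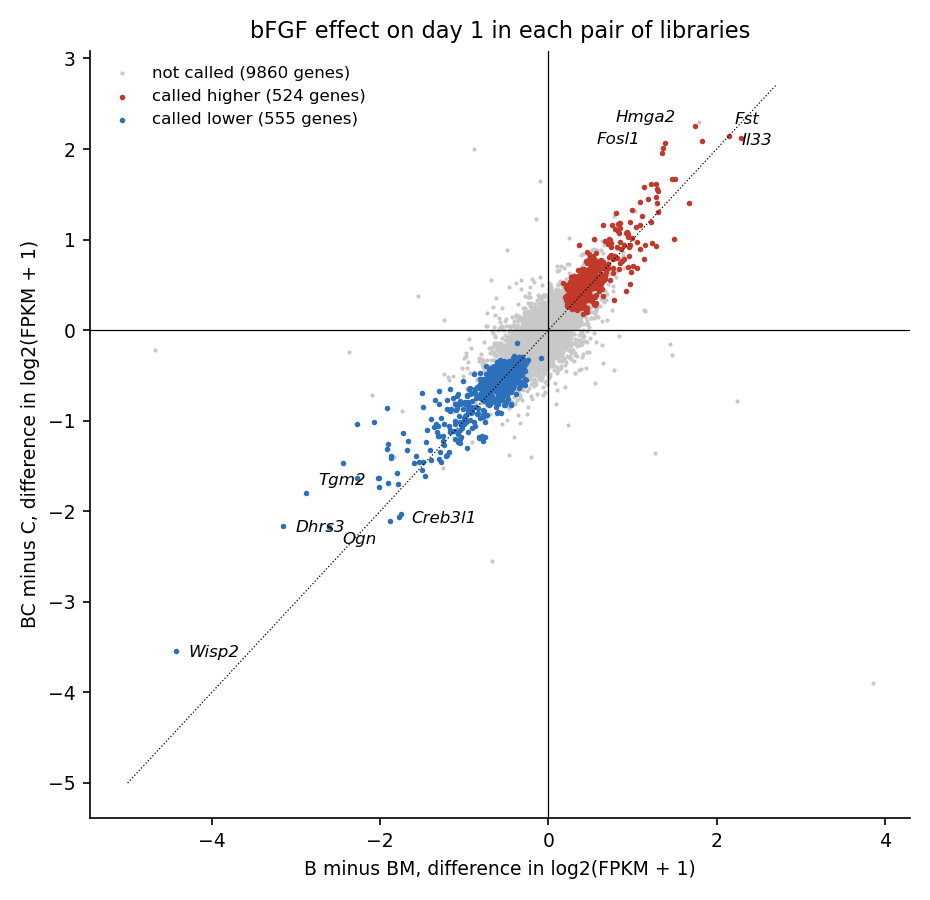
Each point is 1 of the 10939 genes tested; the x axis gives the difference in log2(FPKM + 1) between B and BM and the y axis that between BC and C on day 1. The 524 genes called higher (red) and 555 called lower (blue) lie along the dotted line of equal differences, with Wisp2 farthest out at the lower left.

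The number of calls depended on single libraries and on how CHIR99021 was handled. It was 388 without BM, 268 without C, 52 without B and 92 without BC, where the lone library of an arm is assumed to vary like the other arm. With CHIR99021 as a block, which leaves 1 residual degree of freedom, 4608 genes were called, and all 1079 genes were among them. The share of calls that were higher was 48.6%, and it was 39.0% when libraries were scaled by their totals only and 39.9% with limma on log2(FPKM + 1).

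Of 20 ligands, receptors and adaptors of the FGF system in the files, 7 reached the minimum mean FPKM of 1. Of these, 1 was called higher and 1 lower, against 4.79% and 5.07% of all genes tested. Fgf2, the gene of bFGF, was at no more than 0.08 FPKM in the 4 libraries. The main receptor gene was Fgfr1, with 48.25 (BM), 34.13 (C), 43.15 (B) and 34.64 (BC) FPKM, so the groups overlapped (log2 fold change -0.05 ± 0.19, SE; adjusted p = 0.899). Fgfr2, at a low level, fell from 1.53 FPKM in BM and 1.38 in C to 0.71 in both B and BC (log2 fold change -1.02 ± 0.16, adjusted p = 0.0251). Fgf15, a ligand expressed in developing retina, rose from 3.24 and 2.15 FPKM in BM and C to 7.06 and 5.61 in B and BC (log2 fold change 1.27 ± 0.24, adjusted p = 0.0341). The other tested members, Fgfrl1, Fgf7, Frs2 and Frs3, had log2 fold changes between -0.10 and 0.24 and were not called. Neither Fgf15 nor Fgfr2 was called when C, B or BC was left out, and without BM Fgf15 alone was.

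The ERK feedback genes rose with bFGF. Of 19 in the files, 18 were tested, 11 were called higher and none lower, against 4.79% and 5.07% of all genes. Higher in both pairs were 17, against 34.5%. The median log2 fold change was 0.81, against about 0 over all genes tested. Dusp6, the phosphatase that acts on ERK in the cytoplasm, was at 12.20 (BM), 5.40 (C), 33.63 (B) and 25.77 (BC) FPKM (log2 fold change 1.79 ± 0.36, adjusted p = 0.0400). Both libraries with bFGF stood above both without, and in 6390 of 10939 genes tested the groups did not overlap, in either direction. Dusp5, its nuclear counterpart, was at 8.52, 5.52, 29.38 and 16.25 FPKM in BM, C, B and BC (log2 fold change 1.74 ± 0.34, adjusted p = 0.0371). Dusp4, another nuclear phosphatase of MAP kinases, was at 24.03, 15.60, 59.69 and 45.02 FPKM in the same order (log2 fold change 1.44 ± 0.23, adjusted p = 0.0261). The related Dusp9 and Dusp7 rose by 1.06 ± 0.15 and 0.72 ± 0.10 on the log2 scale.

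The Sprouty genes, whose products restrain receptor tyrosine kinase signalling, moved likewise. Spry4 was at 3.22 (BM), 2.69 (C), 9.42 (B) and 8.10 (BC) FPKM (log2 fold change 1.61 ± 0.14, adjusted p = 0.00966), and Spry2 was at 10.05, 6.89, 18.33 and 18.41 FPKM (1.15 ± 0.18, adjusted p = 0.0246). Spry1, at 0.94 to 2.11 FPKM, was not called (0.78 ± 0.25, adjusted p = 0.107). Of the SPRED genes, Spred2 and Spred3 each rose by 0.45 ± 0.07, and Spred1 was not called (0.35 ± 0.09, adjusted p = 0.0616).

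The ETS factors Etv4 and Etv5, which carry ERK signals to transcription, both rose. Etv4 was at 17.56 (BM) and 13.49 (C) FPKM without bFGF and at 38.35 (B) and 37.66 (BC) with it (log2 fold change 1.33 ± 0.13, adjusted p = 0.0124). Etv5 went from 13.39 and 9.04 FPKM to 30.66 and 28.94 (1.44 ± 0.18, adjusted p = 0.0169). Their relative Etv1 was not called, with 5.31 to 6.30 FPKM in all 4 libraries. The remaining members not called were Lif (0.84 ± 0.34), Ccnd1 (0.64 ± 0.20), Phlda1 (0.25 ± 0.15) and Il17rd (-0.41 ± 0.24), and Spry3 was below the minimum. In 10 of the 11 called genes, the libraries were ordered C, BM, BC and B from lowest to highest. A higher call itself requires B above BM and BC above C. The share of all genes with this order was not counted. The count of 11 was 9 without BM, 5 without C, 1 without B and 3 without BC.

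**Figure D2:**
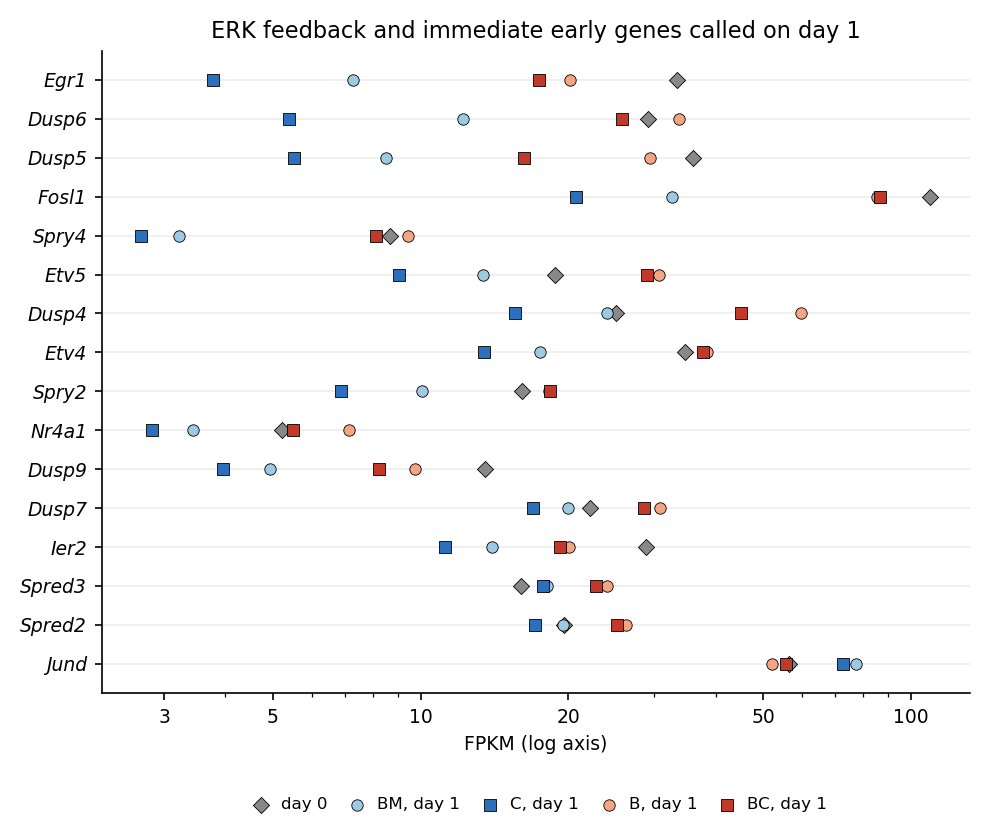
FPKM (log axis) of the 11 ERK feedback genes and 5 immediate early genes called on day 1, with 1 point per library: circles for BM and B, squares for C and BC, blue without and red with bFGF, and grey diamonds for day 0. Red points lie to the right of blue points in every gene except Jund, where they lie to the left.

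The promoters of Dusp6, Dusp5 and Etv5, 3 of the larger rises on the list, are shown as the 250 bases before the gene start in RefSeq's table (GRCm38.p6), since these genes moved together. Capitals in Dusp5 mark a pair of adjoining CArG boxes, the site of serum response factor, and capitals in Etv5 mark a FOXO motif. No motif searched was found in the window of Dusp6.
Dusp6 (chr10:99262981-99263230, plus strand): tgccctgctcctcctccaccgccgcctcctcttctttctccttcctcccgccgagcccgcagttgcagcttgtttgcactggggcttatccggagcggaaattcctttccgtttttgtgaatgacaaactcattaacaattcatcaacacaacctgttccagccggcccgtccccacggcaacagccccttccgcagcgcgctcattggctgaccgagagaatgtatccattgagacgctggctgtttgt
Dusp5 (chr19:53528895-53529144, plus strand): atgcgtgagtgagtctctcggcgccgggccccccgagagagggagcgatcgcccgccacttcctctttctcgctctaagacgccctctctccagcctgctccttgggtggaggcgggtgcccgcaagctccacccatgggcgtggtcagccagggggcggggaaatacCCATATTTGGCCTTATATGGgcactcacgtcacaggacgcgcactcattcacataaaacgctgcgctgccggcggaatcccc
Etv5 (chr16:22439571-22439820, minus strand): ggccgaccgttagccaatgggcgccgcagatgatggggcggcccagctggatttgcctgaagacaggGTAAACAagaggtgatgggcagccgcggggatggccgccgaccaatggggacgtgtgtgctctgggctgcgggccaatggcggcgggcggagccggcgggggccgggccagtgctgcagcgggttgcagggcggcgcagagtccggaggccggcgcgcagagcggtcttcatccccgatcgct

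The motifs searched on both strands were AP-1 (TGANTCA), CRE (TGACGTCA), ETS (CCGGAAGT), E-box (CACGTG), FOXO (GTAAACA) and, chosen after these sequences had been seen, the CArG box. Of the 11 called ERK feedback genes, 7 had an entry, and 1 of them held a FOXO motif, 1 a CArG box and none any of the others. Among 8824 tested genes with an entry, 5.10% held AP-1, 3.23% CRE, 7.33% ETS, 10.2% an E-box, 2.58% FOXO and 1.44% a CArG box. The 426 genes called higher with an entry held an E-box in 12.9% and ETS in 6.57%, and the 437 called lower held them in 7.32% and 1.37%. A match is a description of these letters only, and the shares were not tested.

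Immediate early genes, the transcription factors that respond first to growth factors, were mixed after 1 day. Of 25 in the files, 20 were tested, and 4 were called higher (Egr1, Fosl1, Nr4a1 and Ier2) and 1 lower (Jund). Over all genes tested, the shares were 4.79% and 5.07%. The median log2 fold change of the list was 0.27. Egr1 was at 7.27 (BM), 3.77 (C), 20.15 (B) and 17.46 (BC) FPKM (log2 fold change 1.80 ± 0.29, adjusted p = 0.0248). Fosl1, an AP-1 subunit, was at 32.52 and 20.72 FPKM without bFGF and at 85.44 and 86.64 with it (1.73 ± 0.20, adjusted p = 0.0146). Nr4a1, an orphan nuclear receptor, rose by 1.06 ± 0.19, from 3.44 and 2.83 FPKM to 7.16 and 5.50. Fos was at only 1.14 to 2.03 FPKM and its groups overlapped (0.36 ± 0.30, adjusted p = 0.474). Jund fell from 77.48 and 72.69 FPKM to 52.13 and 55.57 (-0.44 ± 0.07, adjusted p = 0.0262). DESeq2 called 7 higher and 3 lower, and no member was called without B or BC.

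Myc was not called in the main fit. It was at 48.51 (BM), 22.63 (C), 87.50 (B) and 52.93 (BC) FPKM, higher with bFGF in both pairs but with a wide spread (log2 fold change 1.02 ± 0.40, adjusted p = 0.159). The main edgeR fit, which has no CHIR99021 term, called 0 of the 10 tested genes of the Myc network, as did DESeq2 and limma. At an unadjusted p under 0.05, 2 were higher and 2 lower. With CHIR99021 as a block, edgeR called 3 higher and 2 lower, against 2366 and 2242 of all genes tested. In a model of the 16 cultured libraries it called 1 higher and 1 lower. Of 9 tested EGF family genes, 2 were called higher and none lower, against 4.79% and 5.07% of all genes tested. Ereg, the ligand epiregulin, rose from 4.60 and 3.27 FPKM to 11.07 and 9.21 (1.40 ± 0.19, adjusted p = 0.0174). Errfi1, an inhibitor of the EGF receptor, rose from 17.21 and 10.49 FPKM to 43.46 and 29.29 (1.43 ± 0.28, adjusted p = 0.0376). Egfr, the receptor gene, was at 13.90 to 18.05 FPKM and its groups overlapped (-0.03 ± 0.17). Neither Ereg nor Errfi1 was called without B or BC.

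Genes for ribosome biogenesis rose together. All 22 in the files were tested, and all 22 were higher with bFGF in both pairs, against 34.5% of all genes tested. Of these, 18 were called higher, against 4.79%, and the median log2 fold change was 0.57. The called genes lay in a narrow range, from 1.26-fold to 1.60-fold. Nop2, an rRNA methyltransferase, was at 35.19 (BM) and 32.22 (C) FPKM without bFGF and at 51.74 (B) and 53.07 (BC) with it (log2 fold change 0.67 ± 0.07, adjusted p = 0.0138). Nop56, a core protein of box C/D snoRNPs, went from 76.25 and 78.08 FPKM to 111.19 and 122.87 (0.66 ± 0.07), and Polr1b, a subunit of RNA polymerase I, from 9.82 and 9.58 to 14.23 and 15.61 (0.65 ± 0.08). Dkc1, the pseudouridine synthase of box H/ACA snoRNPs, rose by 0.59 ± 0.07 and Gnl3, the nucleolar GTPase nucleostemin, by 0.68 ± 0.09. The 4 not called were Ncl (0.46 ± 0.11), Npm1 (0.31 ± 0.11), Polr1a (0.30 ± 0.09) and Bop1 (0.33 ± 0.09). In 18 of the 18 called genes, day 0 stood above all 4 libraries of day 1, and the share over all genes tested was not counted. The count of 18 was 17 with limma and 19 with DESeq2, but 10 without BM, 1 without C and 0 without B or BC.

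Targets of ATF4, the transcription factor of the amino acid response, also moved upwards. Of 19 tested, 18 were higher in both pairs and 8 were called higher, against 34.5% and 4.79% of all genes. The median was 0.31. Cth, a transsulfuration enzyme, was at 83.11 (BM), 75.24 (C), 126.26 (B) and 126.52 (BC) FPKM (log2 fold change 0.71 ± 0.08, adjusted p = 0.0138). The largest of the others were Chac1, a glutathione-degrading enzyme (0.50 ± 0.07), and Mthfd2, of mitochondrial one-carbon metabolism (0.48 ± 0.08). Atf4 itself rose by 0.34 ± 0.08. The count of 8 was 3 when libraries were scaled by totals only or tested with limma, 2 without BM, 1 without C and 0 without B or BC.

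No mitotic gene passed the main test after 1 day. The main edgeR fit called 0 of 25 mitotic genes, as did DESeq2 and limma. At an unadjusted p under 0.05, 1 was higher and 2 were lower. With CHIR99021 as a block, edgeR called 3 higher and 4 lower, against 2366 and 2242 of all 10939 genes tested. The median log2 fold change of the 25 genes was -0.04 in the main fit, within a range of -0.26 to 0.19. Mki67, the proliferation marker, was at 76.14 (BM), 97.12 (C), 74.25 (B) and 81.30 (BC) FPKM (-0.11 ± 0.13), and Ccnb1, the mitotic cyclin, at 78.15, 87.87, 79.26 and 86.20 (0.03 ± 0.08). In neither gene did the libraries separate by bFGF.

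Of 30 replication genes, 2 were called higher, against 4.79% of all genes, and 25 were higher with bFGF in both pairs, against 34.5%, with a median of 0.16. Cdt1, a factor that licenses replication origins, went from 30.52 and 29.93 FPKM in BM and C to 40.55 and 47.20 in B and BC (0.57 ± 0.09, adjusted p = 0.0234), and Mcm3, a subunit of the replicative helicase, rose by 0.29 ± 0.06 (adjusted p = 0.0460). Neither was called when any 1 library was left out. With CHIR99021 as a block, edgeR called 15 of the 30 replication genes higher, against 2366 of all 10939 genes tested. Of 12 G1 cyclins, kinases and partners, 9 were higher in both pairs, against 34.5% of all genes tested. The main edgeR fit and limma called 0 and DESeq2 called 1. With the block, edgeR called 6 higher, against the same 2366 of all 10939 genes. A model of the 16 cultured libraries called 1. In the main fit, 6 of the 12 were higher at an unadjusted p under 0.05. Ccnd1, the D-type cyclin through which ERK acts on G1, was among the most abundant of them, at 538.09 (BM), 362.09 (C), 716.87 (B) and 648.89 (BC) FPKM (0.64 ± 0.20, adjusted p = 0.101). Its 2 libraries with bFGF stood above the 2 without. Groups that did not overlap, in either direction, were found in 6390 of the 10939 genes tested.

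Genes that hold the cycle back were split. Of 17 CDK inhibitors and quiescence genes, 3 were called lower and 2 higher, against 5.07% and 4.79% of all genes tested. Cdkn1b, the CDK inhibitor p27, fell from 25.50 FPKM in BM and 25.68 in C to 17.54 in B and 15.65 in BC (-0.59 ± 0.09, adjusted p = 0.0230). Tob1, an antiproliferative gene, fell by 0.55 ± 0.08 on the log2 scale and Gadd45g, a stress sensor, by 0.89 ± 0.13. Cdkn1a, the CDK inhibitor p21, instead rose from 7.29 and 8.92 FPKM to 12.04 and 11.90 (0.60 ± 0.12, adjusted p = 0.0395), as did Gadd45a (0.56 ± 0.10). The count of 5 calls was 2 without BM, 1 without C and 0 without B or BC.

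Targets of FOXO factors were called lower more often than higher, 6 of 15 tested against 1, with a median of -0.38. Over all genes tested, 5.07% were called lower and 4.79% higher. Bcl6, a transcriptional repressor, was at 14.34 (BM), 15.10 (C), 8.36 (B) and 8.14 (BC) FPKM (log2 fold change -0.81 ± 0.08, adjusted p = 0.0132). Txnip, the thioredoxin-interacting protein, fell from 47.88 and 59.94 FPKM to 23.25 and 32.29 (-0.92 ± 0.18, adjusted p = 0.0347). Ddit4, an inhibitor of mTORC1, fell from 66.62 and 65.48 FPKM to 44.00 and 47.79 (-0.49 ± 0.07), and Sesn1, Pik3ip1 and Foxo1 fell as well, by 0.72, 0.77 and 0.53. Trib2, a pseudokinase gene, rose from 6.21 and 4.50 FPKM to 12.03 and 11.48 (1.19 ± 0.14, adjusted p = 0.0140). The count of 6 lower calls was 4 without BM, 2 without C and 0 without B or BC.

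**Figure D3:**
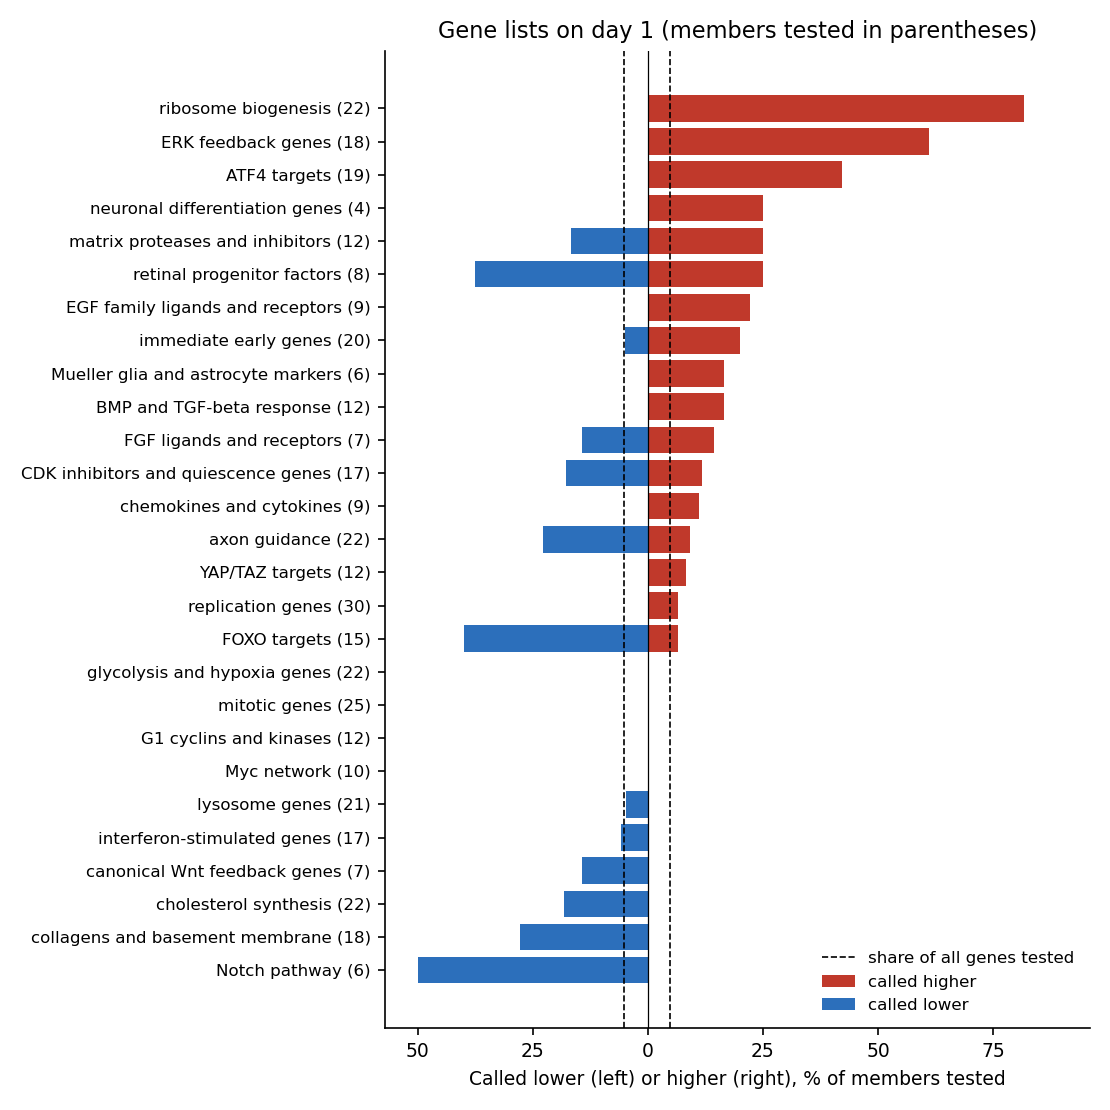
Share of the tested members of each gene list that were called higher (red bars, to the right) or lower (blue bars, to the left) with bFGF on day 1, in percent, for lists with at least 4 members tested. Dashed lines give the shares over all genes tested, 4.79% higher and 5.07% lower; ribosome biogenesis (18 of 22) and ERK feedback genes (11 of 18) reach farthest to the right.

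Retinal progenitor factors moved in both directions. Of 8 tested, 3 were called lower and 2 higher, against 5.07% and 4.79% of all genes. Pax6, the homeobox gene of eye development, was at 42.16 (BM), 43.27 (C), 20.63 (B) and 21.89 (BC) FPKM, so that it fell by 0.97 ± 0.06 on the log2 scale (1.96-fold, adjusted p = 0.00890). The homeobox genes Meis2 and Meis1 fell by 0.64 ± 0.06 and 0.71 ± 0.09. Six3 (-0.35 ± 0.08) and Sox2 (-0.63 ± 0.17) were lower in both pairs but not called. Hmga2, a chromatin protein of embryonic and young stem cells, rose from 25.12 and 14.01 FPKM to 86.05 and 70.66 (2.04 ± 0.28, adjusted p = 0.0179), and Sox3 rose from 0.51 and 0.64 to 1.70 and 2.46 (1.89 ± 0.30). The count of 5 calls was 5 without BM, 3 without C, and 1 without B or BC, and DESeq2 called 8.

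In the Notch pathway, which keeps progenitors undifferentiated, 3 of 6 tested genes were called lower and none higher. Over all genes tested, the shares were 5.07% and 4.79%. Notch2, the most abundant receptor, was at 31.28 (BM), 32.04 (C), 17.94 (B) and 16.85 (BC) FPKM (-0.83 ± 0.07, adjusted p = 0.0102). Notch1 fell from 7.80 and 9.08 FPKM to 6.26 and 5.64 (-0.47 ± 0.11, adjusted p = 0.0493) and Lfng, a glycosyltransferase that modifies Notch, from 4.65 and 4.85 to 2.46 and 2.90 (-0.79 ± 0.14). Hes1, a Notch target, was at 6.67 to 10.07 FPKM, its groups overlapped (-0.19 ± 0.22) and it was not called. The count of 3 calls was 1 without BM or C and 0 without B or BC.

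Among 7 tested canonical Wnt feedback genes, 1 was called lower and none higher. Over all genes tested, 5.07% were called lower and 4.79% higher, and the lists that follow have the same background. It was Apcdd1, a Wnt inhibitor, which fell from 33.60 and 33.05 FPKM to 17.16 and 19.88 (-0.81 ± 0.09, adjusted p = 0.0138). Bmp2, a BMP ligand, rose from 1.06 and 0.83 FPKM to 3.05 and 3.19 (1.76 ± 0.19), and Id1, a BMP target, from 19.86 and 16.06 to 29.05 and 29.10 (0.73 ± 0.13). They were the called members among 12 tested BMP and TGF-beta response genes. Of 12 YAP/TAZ targets tested, Tead4 was called (0.61 ± 0.13, adjusted p = 0.0465), and it was not called by limma. Cd44, the hyaluronan receptor, rose from 58.01 and 47.37 FPKM to 113.93 and 84.47 (0.95 ± 0.17) among 6 glial genes tested. Gap43, a growth cone protein, rose from 5.14 and 4.86 FPKM to 7.79 and 8.91 (0.77 ± 0.14) among 4 neuronal genes tested. None of these 6 genes was called without B.

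Matrix and guidance genes changed in both directions. Of 12 matrix proteases and inhibitors tested, 3 were called higher and 2 lower, against 4.79% and 5.07% of all genes. Timp3, an inhibitor of metalloproteinases bound to the matrix, was at 159.25 (BM), 184.07 (C), 55.71 (B) and 62.44 (BC) FPKM (log2 fold change -1.50 ± 0.11, adjusted p = 0.00919). Its soluble relative Timp1 rose from 44.78 and 44.28 FPKM to 88.38 and 63.68 (0.81 ± 0.16), and Plaur, the urokinase receptor, from 16.51 and 13.29 to 37.72 and 26.47 (1.14 ± 0.20). Plat, the tissue plasminogen activator, rose by 0.57 ± 0.10 and Mmp14, a membrane-bound metalloproteinase, fell by 0.52 ± 0.10. Of 18 collagen and basement membrane genes tested, 5 were called lower and none higher, against 5.07% and 4.79% of all genes. They were led in level by Col3a1, which fell from 303.44 and 272.38 FPKM to 152.82 and 134.37 (-0.97 ± 0.11). Of 22 axon guidance genes tested, 5 were called lower and 2 higher, against the same shares of all genes. Efnb2, the ligand ephrin-B2, fell from 43.81 and 54.07 FPKM to 17.44 and 19.02 (-1.39 ± 0.11, adjusted p = 0.00966), and Unc5b, a netrin receptor, rose from 1.54 and 1.63 to 3.31 and 3.23 (1.08 ± 0.11). The count of 5 collagen calls was 3 without BM or C and 0 without B or BC. The count of 7 guidance calls was 6 without BM, 3 without C and 2 without B or BC, and the count of 5 protease and inhibitor calls was 1 without BM, 2 without C, 1 without B and 3 without BC.

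Of 9 pericyte and fibroblast markers in the files, 3 were tested and 1, the receptor gene Pdgfrb, fell from 18.36 and 13.39 FPKM to 8.75 and 6.21 (-1.05 ± 0.21, adjusted p = 0.0393). Over all genes tested, 5.07% were called lower. Pdgfra was not called (-0.14 ± 0.23), nor was Acta2, smooth muscle actin (-1.45 ± 0.43, adjusted p = 0.0886). Acta2 was at 53.65 (BM), 22.26 (C), 15.43 (B) and 11.50 (BC) FPKM. The summed level of the 9 markers was 75.13 FPKM in BM and 38.36 in C, and 26.14 and 19.31 FPKM in B and BC. Acta2 was the larger part of the sum in each of the 4 libraries. Lum, Rgs5 and Cspg4, which are on the list but were below the minimum, were at no more than 0.04 FPKM. Pdgfrb was not called without BM, B or BC. Whether pericytes or fibroblasts were present, and their part in the matrix changes, was not tested. In bulk libraries, fewer cells of a type and less RNA per cell cannot be told apart.

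Of 22 cholesterol synthesis genes, 4 fell, against 5.07% of all genes, and 20 were lower in both pairs, against 45.2%, with a median of -0.18. Hmgcs1, Ebp, Mvk and Hsd17b7 fell, by 0.54 ± 0.08, 0.52 ± 0.07, 0.41 ± 0.07 and 0.30 ± 0.07. None of them was called when any 1 library was left out. The main edgeR fit called 0 of 22 glycolysis and hypoxia genes, with 7 higher at an unadjusted p under 0.05 and a median of 0.16. DESeq2 called 1 higher, limma 0, and edgeR with CHIR99021 as a block 12 higher, against 2366 of all 10939 genes tested with the block. Near the 5.07% of all genes called lower, 1 of 21 lysosome genes and 1 of 17 interferon-stimulated genes were called. They were Lamp2, a lysosomal membrane protein (-0.36 ± 0.07), and Irf1, an interferon-responsive transcription factor (-0.59 ± 0.10). Lower in both pairs were 18 of the 21 lysosome genes (median -0.17) and 10 of the 17 interferon-stimulated genes, against 45.2% of all genes. DESeq2 called 4 lysosome genes. With CHIR99021 as a block, edgeR called 12 lysosome genes lower, against 2242 of all genes tested. Lamp2 and Irf1 both fell.

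The largest rise by edgeR's estimate, among named genes with a mean of at least 5 FPKM, was that of Fst. Fst, the activin antagonist follistatin, was at 9.69 (BM) and 7.32 (C) FPKM without bFGF and at 51.25 (B) and 35.18 (BC) with it (log2 fold change 2.38 ± 0.23, 5.20-fold, adjusted p = 0.0114). Il33, a nuclear cytokine, followed with 15.78 and 13.11 FPKM without bFGF and 73.56 and 61.16 with it (2.26 ± 0.14, adjusted p = 0.00890). It was the 1 call among 9 chemokines and cytokines tested, and 4.79% of all genes were called higher. Rgs16, a regulator of G protein signalling, was at 44.47, 23.20, 159.72 and 101.63 FPKM in BM, C, B and BC (1.99 ± 0.35, adjusted p = 0.0306). In each of these genes both libraries with bFGF stood above both without. The groups did not overlap, in either direction, in 6390 of 10939 genes tested. Upp1, uridine phosphorylase, rose by 1.71 ± 0.17, Prkg2, a cGMP-dependent kinase, by 1.55 ± 0.19 and Tmem200a by 1.55 ± 0.24. The other 6 of the 12 largest rises were Hmga2, Egr1, Dusp6, Dusp5, Fosl1 and Spry4, given above.

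Rank for rank, the 12 largest falls were larger than the 12 largest rises on the log2 scale. Wisp2, a secreted protein of the CCN family, was at 34.56 FPKM in BM and 21.72 in C but only at 0.65 and 0.95 FPKM in B and BC, 33.3-fold lower with bFGF (log2 fold change -5.06 ± 0.33, adjusted p = 0.00890). It rested on 22 and 32 expected counts in B and BC against 1144 and 706 in BM and C. Dhrs3, a retinaldehyde reductase, fell from 57.54 and 31.70 FPKM to 5.59 and 6.32 (-2.84 ± 0.31, adjusted p = 0.0138). The groups were far apart in both.

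Ogn, the small leucine-rich proteoglycan osteoglycin, fell from 18.31 and 13.43 FPKM to 2.18 and 2.20 (-2.82 ± 0.18), and Tgm2, tissue transglutaminase, from 30.26 and 14.90 to 3.25 and 3.56 (-2.69 ± 0.35). Creb3l1, a transcription factor of the secretory pathway, fell from 8.14 and 14.50 FPKM to 1.66 and 2.71 (-2.33 ± 0.35), and the serine protease gene Htra3 fell by 2.20 ± 0.17. The ligand gene Wnt9a fell by 2.09 ± 0.21, the complement gene C3 by 2.01 ± 0.42, and Scx, a transcription factor of tendon, was 4.01-fold lower. Crabp2, a carrier of retinoic acid, fell from 24.78 and 12.84 FPKM to 6.07 and 4.28 (-1.82 ± 0.36, adjusted p = 0.0377). Plpp3, a lipid phosphatase, and Stard10, a lipid transfer protein, fell by 1.61 ± 0.10 and 1.60 ± 0.28.

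**Figure D4:**
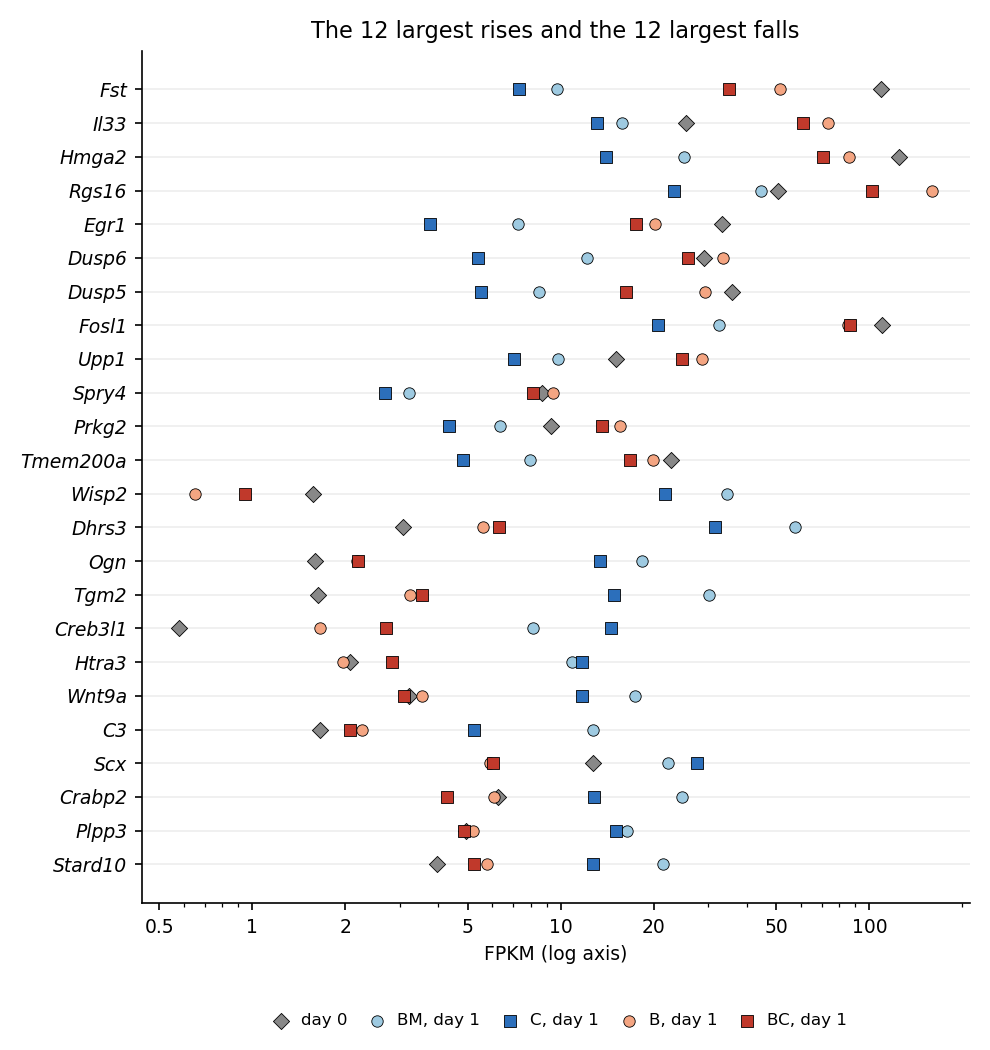
FPKM (log axis) of the 12 largest rises (top) and 12 largest falls (bottom) among genes called on day 1, with 1 point per library: circles for BM and B, squares for C and BC, blue without and red with bFGF, and grey diamonds for day 0. In the 12 falls the red points lie left of the blue points. Day 0 lies among or left of the red points except in Wisp2, Crabp2 and Scx, where it lies between the groups.

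The day 0 library was closer to the libraries with bFGF for most called genes. The mean of B and BC was nearer to day 0 than the mean of BM and C, in log2(FPKM + 1), for 380 of the 524 genes called higher (72.5%) and for 494 of the 555 called lower (89.0%), against 66.1% of all genes tested. Since the state of the day 0 cells is described in more than one way, what nearness to it stands for was not settled. Wisp2 was at 1.57 FPKM on day 0 and Ogn at 1.60, near their levels in B and BC. Fst and Hmga2 were at 109.14 and 125.02 FPKM on day 0, above all 4 libraries of day 1. Among the 11 called ERK feedback genes, 7 were nearer to day 0 with bFGF. Ddit4 was at 6.32 FPKM on day 0 and at 44.00 to 66.62 FPKM in the 4 libraries of day 1, so it was far from day 0 with and without bFGF.

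To see which changes lasted, the same treatments were compared on day 3, in 4 libraries that are not among those of day 1. Of the 524 genes called higher, 335 (63.9%) were higher with bFGF in both pairs of day 3, against 33.7% of all genes tested. Of the 555 called lower, 429 (77.3%) were lower in both pairs, against 48.6%. In a model of the 16 cultured libraries of days 1 to 7, the bFGF effect differed between day 1 and day 3 in 2903 of 11272 genes (25.8%), including 346 of the 1079. The number was 1568 in the 8 libraries of these days without a CHIR99021 term, and 1717, 1800, 1929 and 1879 without C, B or BC of day 1 or BM of day 3.

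The mitotic genes all differed between the days. On day 3, 25 of 25 were higher with bFGF in both pairs, with a median log2 fold change of 2.14. In 25 of 25 the effects of the days differed. Over all genes tested, 33.7% were higher in both pairs of day 3, and the effects of the days differed in 25.8%. Mki67 was at 8.34 FPKM in BM and 9.10 in C on day 3, and at 33.74 in B and 30.97 in BC, against 74.25 to 97.12 FPKM in the 4 libraries of day 1. So the groups separated on day 3 at levels below those of day 1. Replication genes had a median of 1.05 on day 3 and 19 of 30 differed, cholesterol synthesis genes a median of 1.20 and 19 of 22. Ccnd1 had a log2 fold change of 1.86 on day 3, larger than on day 1 (adjusted p of the difference = 0.00271).

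Most ERK feedback genes were higher with bFGF on day 3 as well. Of 18, 14 were higher in both pairs and 2 lower, against 33.7% and 48.6% of all genes tested, and the median was 1.32. The effects of the days differed in 4 of the 18, against 25.8% of all genes. Etv4, at 3.37 (BM), 2.16 (C), 54.72 (B) and 35.23 (BC) FPKM on day 3, had a log2 fold change of 4.11 there, and Dusp4 one of 3.72. Both were larger on day 3 than on day 1 (adjusted p of the difference = 3.93e-05 and 0.000324). Levels without bFGF were lower on day 3 than on day 1 in both genes.

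The ribosome biogenesis genes had no common direction on day 3. Their median log2 fold change was -0.04. With bFGF, 5 of 22 were higher and 10 lower in both pairs, against 33.7% and 48.6% of all genes. The effects of the days differed in 14, against 25.8% of all genes. Among the 18 genes called on day 1, the day 3 values ran from -0.43 to 0.82. Nop2 was at 13.70, 15.62, 13.88 and 11.97 FPKM in BM, C, B and BC on day 3, where the groups overlapped, and the effects of the days differed (adjusted p = 0.00523). In 29 genes called higher on day 1 the effect was below 0 on day 3 past the threshold, with the difference between the days also past it, and in 34 called lower it was above 0. By their values, Odc1, the ornithine decarboxylase of polyamine synthesis (0.47 on day 1 and -1.59 on day 3), and Mdn1, an ATPase of ribosome assembly (0.79 and -0.56), were among the former. Crabp2 (-1.82 and 1.48), the retinoic acid receptor gene Rarb (-0.88 and 0.54) and Gstm1, a glutathione transferase (-0.63 and 0.72), were among the latter.

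**Figure D5:**
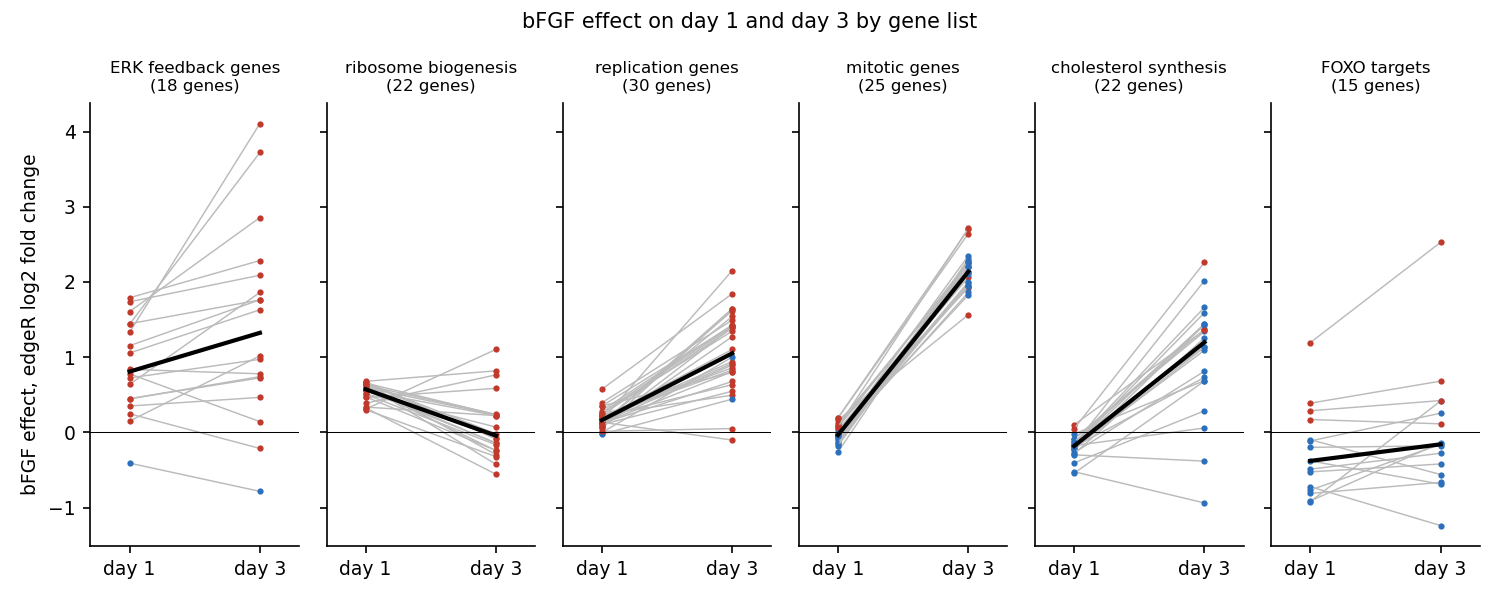
bFGF effect (edgeR log2 fold change, y axis) on day 1 and day 3 for the tested members of 6 gene lists; each thin line is a gene, dots are red or blue by a rise or fall on day 1, and the thick line joins the list medians. The 25 mitotic genes go from near 0 to a median of 2.14, whereas the 22 ribosome biogenesis genes go from a median of 0.57 to -0.04.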

How the data were processed

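RNA was extracted with TRIzol, poly-A selected and sequenced on the BGISEQ-500 platform. Reads were aligned with Bowtie2; the paper names eXpress and the submitters' processing notes name RSEM and mm10 for quantification, and versions and annotation are not given in the sources used here. The files deposited by the authors give an expected count per gene, which is estimated and often fractional, without normalization. The deposited FPKM divides it by transcript length and library total, and starts at 0.01. Genes absent from a library's file were set to 0.

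The expected counts, rounded, were put to edgeR's quasi-likelihood test (edgeR 4.0.16, R 4.3.3, TMM, Benjamini-Hochberg, threshold 0.05), B and BC against BM and C without covariates. The 10939 genes whose FPKM averaged at least 1 over the 4 libraries were tested. Totals of the 4 libraries differed little, so depth limits mainly genes of low FPKM. The test of day 1 against day 3 used 16 cultured libraries, with an intercept and a bFGF effect per day and 1 CHIR99021 term. SE comes from that fit. The biological coefficient of variation was 9.15% on day 1. The paper names DESeq without a design. Both fits were run on simulated counts with a common spread, true replicates and no CHIR99021 effect. The real libraries lack such replicates, so the simulation cannot show how sound the calls are.

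Named genes were the 12 largest called rises and falls with a mean FPKM of at least 5, up to 5 called members per list and the defining members. The 32 gene lists and the members named were chosen with earlier results of these data known. Lists are described by counts and medians only. The alternatives were no filter, a minimum of 5 FPKM, RLE or library totals as scaling, DESeq2 1.42.0, limma 3.58.1 on log2(FPKM + 1) or log2(FPKM + 0.1), quantile normalization, CHIR99021 as a block, 16 libraries, a 2-fold rule in both pairs and leaving out each library. Python 3.11.15 with pandas 2.3.3 and matplotlib 3.10.9 was used for tables and plots. No batch is given in the labels.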

Additional observations from a re-analysis of the deposited data

Results flagged for a closer look

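The bFGF effects of day 1 and day 3 differed in 2903 of 11272 genes (25.8%) by edgeR's test of the difference. Among them were 10 of the 24 largest rises and falls of day 1. The difference, day 1 minus day 3 on the log2 scale, was 0.98 for Fst and 2.17 for Egr1, whose effect was larger on day 1. It was -1.62 for Il33, -2.87 for Fosl1, -2.01 for Upp1, -1.21 for Spry4 and -2.59 for Prkg2, whose rise was larger on day 3. Among the falls it was 1.48 for Ogn, which fell more on day 3, and -1.52 for Creb3l1, which fell more on day 1. It was -3.23 for Crabp2, which was lower with bFGF on day 1 and higher on day 3. Egr1 was at 21.44 (BM), 18.47 (C), 29.54 (B) and 4.87 (BC) FPKM on day 3, so its pairs went opposite ways there. Each day had 1 library per treatment, and what set the days apart was not tested.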

How the results depend on the processing

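Of the main count of 1079 genes (524 higher, 555 lower), 1072 were also called with RLE scaling, 990 with totals only, 966 with DESeq2 and 896 with limma, and these settings gave between 1004 and 1184 calls. Without a filter on low values 0 genes were called (0 higher, 0 lower) by edgeR, although 3505 of 17092 had an unadjusted p under 0.05, and DESeq2 was run on the filtered genes only. The prior degrees of freedom fell from 3.72 to 2.09 in that fit; the cause was not tested. The block for CHIR99021, which pairs B with BM and BC with C, gave 4608 calls (2366 higher, 2242 lower), with an estimated coefficient of variation of 3.78%. A difference of at least 2-fold in both pairs, which uses no test, gave 99 (27 and 72). Leaving out 1 library gave 52 to 388 calls, 8 to 165 higher and 44 to 223 lower, on 1 sample in 1 arm. Totals-only scaling moved the median of all genes to -0.04. The test of day 1 against day 3 gave 2903 genes, 1568 in 8 libraries without a CHIR99021 term and 1717 to 3265 when a library was left out. Of 37 genes followed singly (the 24 largest rises and falls and the called FGF, ERK feedback and immediate early genes), none turned in direction, and 37 kept their call with DESeq2, 35 with limma, 30 without BM, 25 without C, 12 without BC and 8 without B. These 37 genes were picked as called in the same libraries, so their kept direction was largely set by that choice. By replicate number, no paired analysis was possible because each treatment and day had 1 library. The CHIR99021 block was the pairing that could be fitted.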
